A study of Glycine max with 6 samples.

Results

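Sucrose synthase was followed in soybean (Glycine max) hairy roots through 4 gene models, taken from the deposited expression table by their identifiers. They form 2 homeologous pairs, the duplicate copies left by a past doubling of the soybean genome. One pair is Glyma.17G045800 on chromosome 17 (3404917 to 3410491) with Glyma.13G114000 on chromosome 13 (22767703 to 22773231). The other pair is Glyma.09G073600 on chromosome 9 (7809851 to 7816248) with Glyma.15G182600 on chromosome 15 (17910130 to 17916426). All 4 were present among the 56044 gene models of the table, and all 4 reached 1 FPKM (fragments per kilobase of transcript, scaled to sequencing depth) in at least 1 condition. Coordinates are printed as deposited, on the annotation tagged Wm82.a2.v1. The table gives no gene names or sequences, so the name sucrose synthase and the pairing come from the list that chose the genes and could not be checked against sequence here. Within each pair the deposited loci are close in length, at 5574 and 5528 bases for the chromosome 17 and 13 copies and 6397 and 6296 bases for the chromosome 9 and 15 copies. None of the 4 loci overlaps another gene model.

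Sucrose synthase splits sucrose, the sugar that the phloem delivers from leaves to roots, into UDP-glucose and fructose, and the reaction can run both ways. UDP-glucose is the substrate for cellulose and callose in the cell wall and a route to starch, while fructose enters glycolysis after phosphorylation. In plants the enzyme is known for high activity in organs that import sugar. In legume nodules an abundant form was first described as nodulin-100, and in Arabidopsis some members are known to be induced by low oxygen.

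The roots came from soybean KF1. One group carried a GmPHD6 overexpression construct and one a GmPHD6 construct for RNA interference (RNAi), while the control group is named K599 and its genotype is labelled wild type. GmPHD6 belongs to the Alfin-like family of PHD finger proteins. All 3 groups were hairy roots raised with Agrobacterium rhizogenes K599 on seedlings grown at 28 °C with 16 h of light. Each group had 2 libraries, and the labels do not say whether a library held 1 root or several, or whether the control carried an empty vector. Hairy roots arise from separate transformation events, which the labels do not count. The authors deposited 1 pooled FPKM per gene and condition with a lower and an upper bound, so no SD, n or test across libraries is possible. The comparisons below set pooled columns side by side, and the bounds are not known to cover the spread between roots. The level of GmPHD6 and markers of tissue identity were not analysed here.

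In each column the 4 genes spanned a wide range of levels, per length of transcript. Glyma.17G045800 was the highest, with 529 FPKM in overexpression roots (bounds 522 to 536), 598 in RNAi roots (591 to 605) and 273 in control roots (268 to 277). It ranked 112th, 105th and 206th among all gene models of those columns, so it was among the most abundant transcripts of each. Its partner Glyma.13G114000 stood at 238 FPKM in overexpression roots (233 to 242), 195 in RNAi roots (191 to 199) and 134 in control roots (131 to 137). The overexpression value of Glyma.13G114000 carries the flag FAIL, which 10 gene models have in that column, and the 9 others lie at lower levels. The meaning of the flag is not given in the sources used here, and the half-width of its bounds, 1.86% of the value, is close to that of the same gene in the other columns (2.09% in RNAi and 2.25% in control).

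Glyma.09G073600 had 93.7 FPKM in overexpression roots (90.5 to 96.9), 249 in RNAi roots (245 to 254) and 72.5 in control roots (69.8 to 75.2). Its partner Glyma.15G182600 was the lowest, with 8.02 FPKM in overexpression roots (7.20 to 8.85), 58.0 in RNAi roots (55.8 to 60.1) and 5.98 in control roots (5.33 to 6.62). It ranked 13990th, 2357th and 17145th in the columns, so it was an ordinary transcript in overexpression and control roots and stood in the top 4.21% with RNAi. All 4 genes were lowest in the control column. The share of all gene models with this order was not counted.

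**Figure D1:**
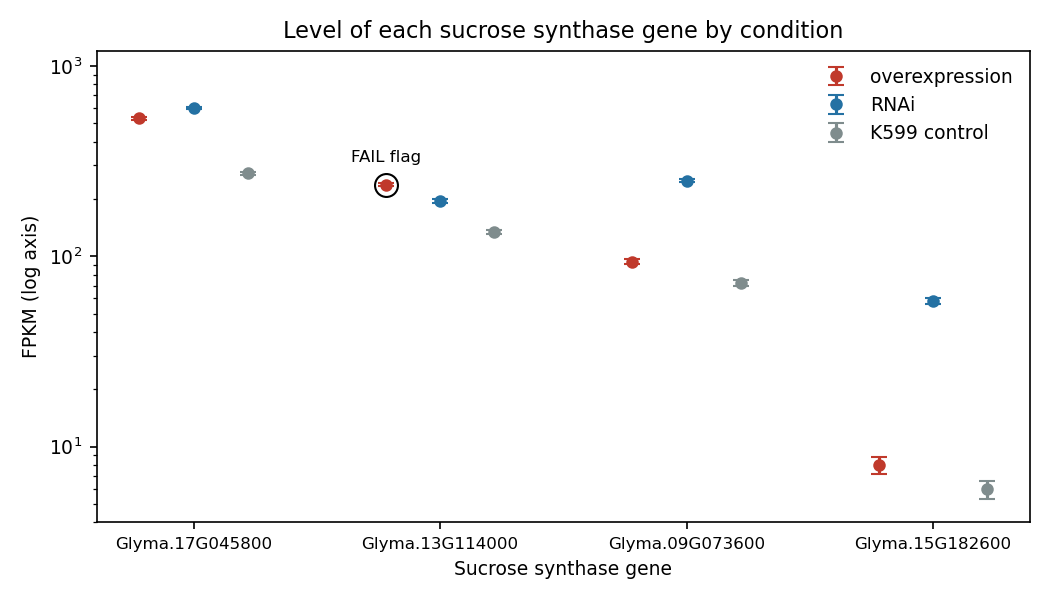
Deposited FPKM of the 4 sucrose synthase genes (log axis) in overexpression, RNAi and control roots; points are the pooled value of each condition and bars the authors' bounds. Each gene is lowest in control, an order that was not counted over all genes. Glyma.09G073600 and Glyma.15G182600 stand far above both other columns with RNAi. The circled value of Glyma.13G114000 has a FAIL flag.

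The order of levels was the same in overexpression and control roots: Glyma.17G045800, Glyma.13G114000, Glyma.09G073600 and Glyma.15G182600. With RNAi the 2 genes in the middle of that order changed places. Glyma.13G114000 stood at 2.54 times the FPKM of Glyma.09G073600 in overexpression roots (a flagged value), 0.783 times in RNAi roots and 1.85 times in control roots. Within each column no 2 neighbours in the order had overlapping bounds. The span from the highest to the lowest gene was 65.9-fold in overexpression roots, 10.3-fold in RNAi roots and 45.6-fold in control roots, so the 4 levels lay closest together with RNAi.

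Summed over the 4 genes, the level was 868 FPKM in overexpression roots, 1100.5 in RNAi roots and 485 in control roots. The overexpression sum includes the flagged value of Glyma.13G114000. The sum was thus 1.79 times the control with overexpression and 2.27 times with RNAi. It made up 0.104% of all FPKM in the overexpression column, 0.146% in RNAi and 0.0717% in control, so the order of the conditions held as a share of the column too. The chromosome 13 and 17 pair supplied 88.3% of the summed level in overexpression roots, 72.1% in RNAi roots and 83.8% in control roots. The chromosome 9 and 15 pair supplied the rest, with 11.7% in overexpression roots, 27.9% in RNAi roots and 16.2% in control roots. Because the tissue was whole root, more cells with the transcript and more transcript per cell cannot be told apart.

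**Figure D2:**
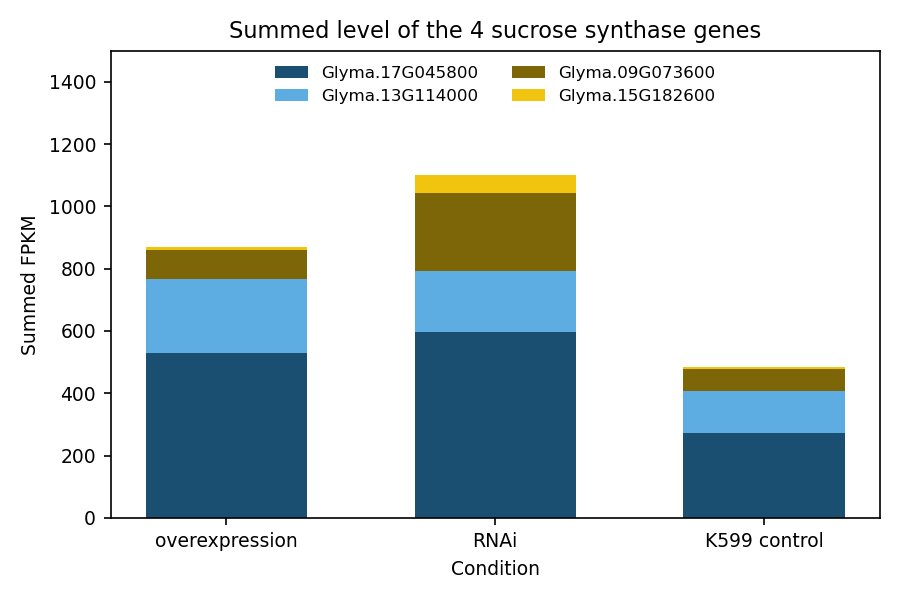
Summed FPKM of the 4 sucrose synthase genes in overexpression, RNAi and control roots, with the share of each gene as a coloured segment; the columns are pooled, so there is no error bar. The sums are 868, 1100.5 and 485 FPKM, and the chromosome 9 and 15 pair takes its widest share, 27.9%, with RNAi.

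Overexpression roots were compared with control roots to see how the 4 genes stand with the construct made to raise GmPHD6. Differences are log2(FPKM + 1) of the first condition minus that of the second, a scale on which low genes show smaller changes than in plain ratios. A gene was called where the difference was at least 1 in size, that is 2-fold, with bounds that did not overlap. None of the sucrose synthases was called higher or lower with overexpression, against 0.846% of 32960 tested genes called higher and 1.37% called lower. The nearest to the threshold was Glyma.17G045800, with 529 FPKM in overexpression roots and 273 in control roots, a difference of 0.95 and a plain ratio of 1.94 (1.90 to 1.98 from the bounds). Only 1.16% of tested genes had a higher difference, and 15 of 508 other genes within 2-fold of its control level did. Its position just under the threshold depends on the scaling of the columns. Overexpression roots held 10.3% of fragments, as computed from the bounds, in a stretch of chromosome 13 that held 1.20% in control roots. The stretch runs from 3000000 to 4300000, so Glyma.13G114000 lies outside it. It held 19.3% of all FPKM in the overexpression column and 2.28% in control, and is part of the column totals used above. Rescaling on the remaining fragments moved Glyma.17G045800 to 1.09, past the threshold. The median of all tested genes moved to 0.13, which leaves Glyma.17G045800 0.96 above that median. Under the other scalings Glyma.17G045800 stayed below the threshold. It lay at 0.75 with quantile normalization, 0.92 with scaling by the median of gene ratios, and 0.93 with equal FPKM sums without that stretch.

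The other chromosome 13 and 17 copy, Glyma.13G114000, differed by 0.82 between overexpression roots (238 FPKM) and control roots (134 FPKM), a ratio of 1.77 (1.72 to 1.83), and was not tested because of its flag. The chromosome 9 and 15 copies differed less from control, each by 0.37. In plain ratios this was 1.29 (1.23 to 1.36) for Glyma.09G073600 and 1.34 (1.16 to 1.56) for Glyma.15G182600. By bounds alone, with no minimum fold, the 3 tested genes were higher in overexpression roots. By the same rule 12.0% of all tested genes were higher and 10.0% lower. A gene with narrow bounds passes this rule at a small difference. The share passing among genes of like level was not computed for any comparison. The median difference of the 4 genes, the flagged one included, was 0.60, beside 0.02 over all tested genes.

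RNAi roots were compared with control roots to see how the genes stand with the construct made to silence GmPHD6. Called higher were 3 of the 4 genes and called lower was none, where 5.56% of 33005 tested genes were called higher and 5.60% lower. Glyma.15G182600 had the largest difference, with 58.0 FPKM in RNAi roots against 5.98 in control roots, 3.08 on the log2 scale and a plain ratio of 9.70 (8.65 to 10.9). Of all tested genes 120 had a higher difference, and of 13461 others within 2-fold of its control level 43 did. Glyma.09G073600 followed with 249 FPKM in RNAi roots against 72.5 in control roots, a difference of 1.77 and a ratio of 3.44 (3.30 to 3.59). Of tested genes 1.93% had a higher difference. The pair with the lower levels in control therefore held the 2 largest differences.

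Glyma.17G045800 was also called higher, with 598 FPKM in RNAi roots against 273 in control roots, a difference of 1.13 and a ratio of 2.19 (2.15 to 2.24). A higher difference was found in 4.75% of tested genes. The call of Glyma.17G045800 was lost with quantile normalization of the columns, where the difference was 0.83, and in 3 further settings. Glyma.13G114000 did not reach the threshold, with 195 FPKM in RNAi roots and 134 in control roots, a difference of 0.54 and a ratio of 1.46 (1.41 to 1.502). A higher difference than this was found in 14.6% of tested genes. The bounds of Glyma.13G114000 did not overlap, and by bounds alone all 4 genes were higher with RNAi. Of tested genes 24.3% were higher and 18.6% lower by this rule, with no share for genes of like level. The half-widths of the 4 genes in RNAi roots were only 1.12% to 3.66% of the value. The median difference of the 4 genes was 1.45, beside 0.05 over all tested genes. The submitters took as downstream of GmPHD6 those genes that are up with overexpression and down with RNAi, and none of the 4 showed this. Each of the 4 genes had a lower level in the shared control column than in either construct column. Of all tested genes 52.4% were above control with overexpression and 54.4% with RNAi. The share above control with both was not counted, and both comparisons use the same control column.

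**Figure D3:**
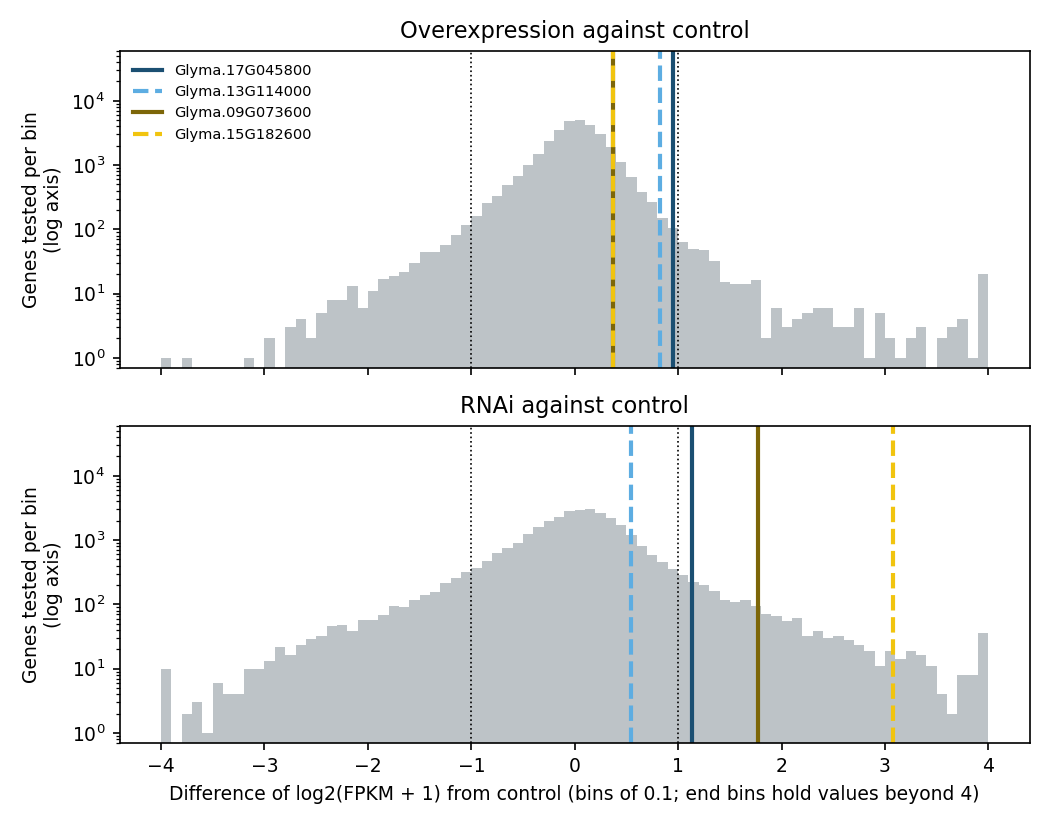
Differences of log2(FPKM + 1) from control for all tested genes (grey, genes per bin on a log axis) with the 4 sucrose synthases as coloured lines, for overexpression roots (top) and RNAi roots (bottom); dotted lines mark the 2-fold threshold. With overexpression the 4 lie between 0.37 and 0.95, and with RNAi between 0.54 and 3.08.

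Set directly against RNAi roots, overexpression roots were called lower at 2 of the 4 genes and higher at none, where 6.46% of 32942 tested genes were called lower and 5.43% higher. Both lower genes belong to the chromosome 9 and 15 pair. Glyma.15G182600 stood at 8.02 FPKM in overexpression roots against 58.0 in RNAi roots, a difference of -2.71, and Glyma.09G073600 at 93.7 against 249, a difference of -1.40. The chromosome 13 and 17 copies each differed less between overexpression and RNAi roots. Glyma.17G045800 stood at 529 FPKM in overexpression roots and 598 in RNAi roots, a difference of -0.18, and the flagged Glyma.13G114000 at 238 and 195, a difference of 0.28. By bounds alone the 3 tested genes were lower in overexpression roots, as were 22.0% of all tested genes, and none was higher, against 19.5%. Summed, the chromosome 13 and 17 pair came to 767 FPKM in overexpression roots and 793 in RNAi roots, against 406 in control roots. The chromosome 9 and 15 pair came to 102 FPKM in overexpression roots and 307 in RNAi roots, against 78.5 in control roots. The first pair was thus at about the same sum with both constructs, 1.89 and 1.95 times the control, whereas the second was at 1.30 times the control with overexpression and 3.91 times with RNAi.

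The balance of the 2 copies within a pair was read as the ratio of their FPKM in 1 column. A constant factor on the column does not alter this ratio. Quantile normalization is not such a factor, and the ratios were not recomputed with it. Glyma.09G073600 stood at 11.7 times its partner Glyma.15G182600 in overexpression roots (10.5 to 13.02 from the combined bounds), 4.3 times in RNAi roots (4.13 to 4.48) and 12.1 times in control roots (10.8 to 13.6). The RNAi interval lies apart from both others, and the overexpression and control intervals overlap. The chromosome 15 copy thus held 18.9% of the pair with RNAi, beside 7.89% with overexpression and 7.61% in control. The ratio was 2.82-fold lower in RNAi roots than in control roots (2.5 to 3.19), and the log2 change with overexpression was -0.06 (-0.28 to 0.17).

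In the other pair the balance leaned further to the higher copy with RNAi. Glyma.17G045800 stood at 2.22 times Glyma.13G114000 in overexpression roots (2.17 to 2.28), 3.06 times in RNAi roots (2.99 to 3.14) and 2.03 times in control roots (1.98 to 2.09). The ratio was 1.51-fold higher in RNAi roots than in control roots, and its log2 change with overexpression was 0.13 (0.08 to 0.18), which rests on the flagged value. The lower copy thus held a larger share of its pair with RNAi on chromosomes 9 and 15, and a smaller share on chromosomes 13 and 17 (24.6% in RNAi roots against 33.0% in control roots). What error the authors' bounds cover is not stated, and these intervals cannot be taken to hold the spread between roots. Homeologs can share fragments, and how the authors assigned such fragments is not given in the sources used here, so the split within a pair is uncertain.

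**Figure D4:**
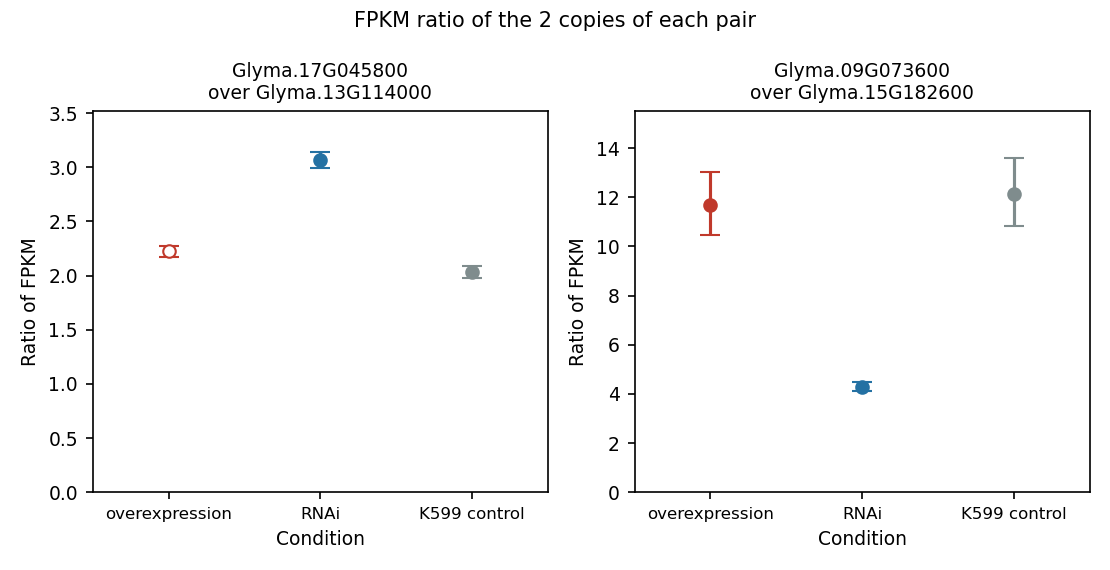
Ratio of the FPKM of the 2 copies in each pair, by condition; bars combine the authors' bounds of both copies, both axes start at 0, and the open point rests on a value flagged FAIL. The chromosome 17 over 13 ratio is highest with RNAi (3.06) and the chromosome 9 over 15 ratio is lowest with RNAi (4.3).

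The position of the genes was examined through the 5 nearest tested gene models on each side of every sucrose synthase, 40 in all. These filled positions 7516155 to 8147595 on chromosome 9 and 17555718 to 18271254 on chromosome 15. On chromosomes 17 and 13 the windows were narrower, 3333922 to 3476854 and 22686633 to 22853005. With overexpression 1 of the 40 neighbours was called higher and none lower. It was Glyma.17G046000, the second tested model after Glyma.17G045800, with 14.6 FPKM in overexpression roots, 2.87 in RNAi roots and 6.39 in control roots. With RNAi no neighbour was called higher and 4 of the 40 were called lower, where 5.60% of all tested genes were. The median difference of the 40 neighbours was 0.02 with overexpression and 0.05 with RNAi, the same to 2 decimals as over all tested genes. By locus the median with RNAi was 0.20 around Glyma.17G045800, 0.12 around Glyma.13G114000, -0.39 around Glyma.09G073600 and -0.09 around Glyma.15G182600.

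The 4 neighbours called lower with RNAi all lie in the wider windows of the chromosome 9 and 15 pair, whose own levels were higher with RNAi. Around Glyma.09G073600 they were Glyma.09G073000 (2.19 FPKM in RNAi roots against 7.36 in control roots), Glyma.09G073200 (1.73 against 4.75) and Glyma.09G074200 (1.39 against 6.06). Around Glyma.15G182600 it was Glyma.15G181800, with 5.19 FPKM in RNAi roots against 29.0 in control roots, a difference of -2.28. The greatest difference among the 10 neighbours with RNAi was 0.28 around Glyma.09G073600 and 0.40 around Glyma.15G182600, far under the 1.77 and 3.08 of the sucrose synthases between them. Around Glyma.17G045800 and Glyma.13G114000 the neighbours' greatest differences with RNAi were 0.51 and 0.61, beside 1.13 and 0.54 for those genes, so Glyma.13G114000 lay within the range of its neighbours.

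**Figure D5:**
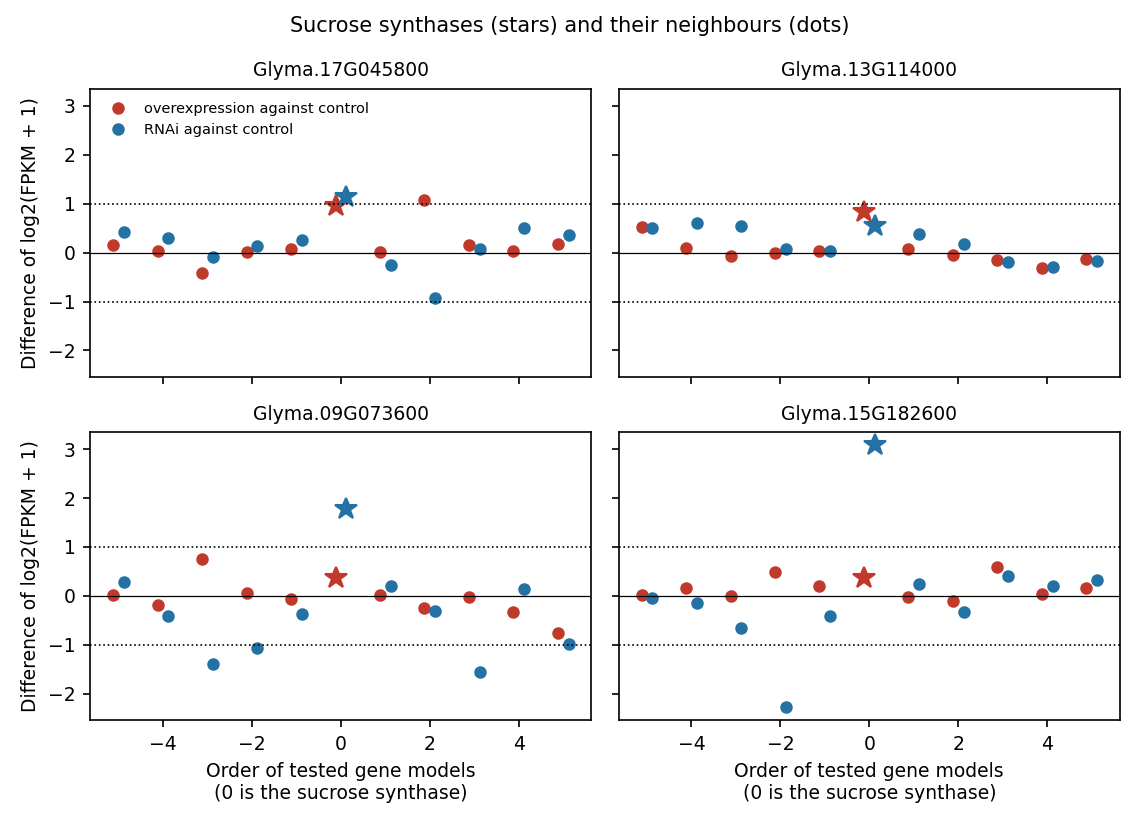
Difference of log2(FPKM + 1) from control for each sucrose synthase (stars) and the 5 nearest tested gene models on each side (dots, in chromosomal order), for overexpression (red) and RNAi (blue); dotted lines mark the 2-fold threshold. The blue stars of Glyma.09G073600 (1.77) and Glyma.15G182600 (3.08) stand above every neighbour in their panels.

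The likeness of 2 genes over the 3 columns was measured as the Euclidean distance between their log2(FPKM + 1) values, each gene centred on its own mean, where 0 is the same pattern. Within the family Glyma.17G045800 and Glyma.13G114000 were closest, at 0.44, and Glyma.13G114000 and Glyma.15G182600 farthest apart, at 2.28. Both distances use the flagged overexpression value of Glyma.13G114000. The 2 copies of the chromosome 9 and 15 pair lay 1.07 apart, farther than Glyma.09G073600 lay from Glyma.17G045800 (0.87). The nearest member to Glyma.15G182600 was thus its partner, while the nearest to Glyma.09G073600 was a gene of the other pair.

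Among other genes within 2-fold of its mean level, Glyma.09G073600 had the closest matches, Glyma.20G137900 at a distance of 0.051 and Glyma.10G066700 at 0.053. Glyma.20G137900 had 70.9 FPKM in overexpression roots, 192 in RNAi roots and 57.6 in control roots. Of 1464 candidates, 18 lay within 0.25 of Glyma.09G073600. For Glyma.15G182600 4 of 7912 candidates lay within 0.25, the nearest being Glyma.14G152700 (0.11) and Glyma.16G073400 (0.14). The median distance of its candidates was 2.32, beside 1.17 for Glyma.09G073600. A fixed limit holds few genes around a gene with a large difference, so this count is no separate result from its RNAi difference. Glyma.14G152700 had 10.0 FPKM in overexpression roots, 70.8 in RNAi roots and 8.33 in control roots. For Glyma.17G045800 the nearest were Glyma.11G247600 (0.15) and Glyma.05G175700 (0.16), with 4 of 252 candidates within 0.25. For Glyma.13G114000 they were Glyma.05G040900 (0.13) and Glyma.12G101200 (0.14), with 23 of 992. These distances rest on 3 pooled columns, and those of Glyma.13G114000 include its flagged overexpression value.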

How the data were processed

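The authors deposited FPKM values per gene model and condition, with a lower and an upper bound of the FPKM and a text flag of the estimate, per the file headers. The 2 libraries of each group had been combined before deposit. TopHat is named in the submitters' processing notes. Versions, the quantification tool, the strand setting and the confidence level of the bounds are not stated there. The column headed G6 was read as GmPHD6 overexpression, since the other 2 are headed RNAi and K599. If the bounds lie 2 SD of counting error from the value, the values rest on between 341 fragments (Glyma.15G182600 in control) and 31689 fragments (Glyma.17G045800 in RNAi). Summed over genes this gave 14672515, 15362378 and 15236398 fragments for overexpression, RNAi and control. In the same order, Glyma.17G045800 had 42.5, 53.0 and 54.7 such fragments per FPKM, and Glyma.13G114000 had 48.8, 46.7 and 58.8. These 2 genes moved differently between columns, so the fragments are taken as approximate. The source of this was not tested.

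Genes were tested with an OK flag and a value above 0 in both columns compared and at least 1 FPKM in at least 1 of the 3 columns. The call rule (2-fold on the log2(FPKM + 1) scale and bounds apart) uses no replicates and yields no p-value. Intervals of ratios add the relative half-widths of the bounds in quadrature. The members and lists were chosen with earlier results of these data known. The genes named in full are the 4 members. For each, the 2 genes nearest in pattern were named; neighbours were named where they passed the rule, a choice made after their values were seen. No deposited ID (0 of 56044) was found in the RefSeq table (assembly Glycine_max_v4.0), so the 11 pathway lists and 4 marker lists defined by gene description were void. Computations used Python 3.11.15 with pandas 2.3.3.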

Additional observations from a re-analysis of the deposited data

How the results depend on the processing

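The columns are pooled, so no replicate could be left out. No paired analysis was possible because the columns carry no replicate number. Over 11 alternative settings, 124 of 132 recomputed differences of the 4 genes kept their direction and their side of the threshold. Glyma.17G045800 lost its RNAi call with quantile normalization (0.83), with columns scaled to equal FPKM sums without the chromosome 13 stretch (0.99), with its pair summed (0.96) and at 4-fold. With columns rescaled on fragments without that stretch, 1 of the 4 genes was called higher with overexpression, as were 1.20% of all tested genes. For Glyma.13G114000 the difference between overexpression and RNAi turned to -0.049 with its pair summed, since Glyma.17G045800 dominates the sum. At 4-fold 1 of the 4 genes was called higher with RNAi than in control and 1 lower with overexpression than with RNAi, both Glyma.15G182600, beside 1.39% and 1.92% of all tested genes. The differences of Glyma.09G073600 and Glyma.15G182600 between RNAi and control ran from 1.44 to 1.78 and from 2.94 to 3.26 with the copies counted singly, and their sum gave 1.96. Settings other than pseudocounts, scalings and summing cannot alter a gene's difference. Each pair sum was counted for both its copies. In comparisons with overexpression the flagged Glyma.13G114000 could be called only where flags were ignored or its pair was summed. The settings that ignored flags and that equalised FPKM sums were chosen after seeing the data.

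Over all genes, 51 of 60 recomputed counts stayed within 1.5 times. With log2(FPKM + 0.1) overexpression had 443 genes higher and 814 lower than control. Requiring a mean of 5 FPKM, so that fewer genes entered, left 1207 lower with RNAi. The 4-fold rule left 75 higher and 50 lower with overexpression, 459 and 368 with RNAi, and 363 and 633 for overexpression against RNAi. Fragments computed from the bounds gave log2 ratios of Glyma.17G045800 to Glyma.13G114000 of 0.95 in overexpression, 1.80 in RNAi and 0.92 in control. The FPKM gave 1.15, 1.62 and 1.02. For Glyma.09G073600 to Glyma.15G182600 the fragments gave 3.19, 1.84 and 3.07, and the FPKM gave 3.55, 2.10 and 3.60. A fixed gene length would give the same gap in every column, which was not seen. Every fragment ratio lay outside the interval of its FPKM ratio. The computed fragments are taken as approximate, and whether they or the FPKM account for the gap was not tested. With log2 of (FPKM + 1) the control value of the second ratio was 3.40.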
